A study of Mus musculus with 6 samples.

Results

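The first steps of pre-B cell receptor signalling were followed at the level of 10 transcripts through Ikaros-mutant leukaemia cultures: the kinases Blk, Lyn, Fyn, Syk and Btk, the adaptors Blnk, Pik3ap1 and Dok3, the phospholipase Plcg2 and the lipid phosphatase Inpp5d. They were taken by symbol, as 10 genes of this signalling step, from the 22098 gene symbols of the expression table. The choice was made with earlier results of these data known. All 10 passed the filter on low values and were tested among 11379 genes. Syk is listed in the table under an older symbol, Sykb, and was matched through its RefSeq accession.

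The cells were mouse pro-B acute lymphoblastic leukaemia cells, obtained by infecting whole bone marrow of C57BL/6 mice with a retrovirus at day 0. The virus (BCR-ABL-p185-IRES-YFP) carries the BCR-ABL fusion kinase and a YFP reporter, and the controls received it too. The marrow was wt (wild type), Ikaros_ZnF1-/- (ZnF1 mutant) or Ikaros_ZnF4-/- (ZnF4 mutant), mutants of Ikaros that are named after the first and the fourth of its zinc fingers. Each genotype gave 1 poly(A) RNA library at day 21 and 1 at day 28 of culture, 6 libraries in all. The labels do not say whether the days of a genotype came from separate cultures or mice. The p-values therefore measure only the spread between these libraries, and whatever was particular to 1 culture cannot be told apart from its genotype.

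The pre-B cell receptor is the immature form of the B cell antigen receptor and acts as a checkpoint of B cell development. The Src-family kinases Blk, Lyn and Fyn phosphorylate the signalling tails of Cd79a and Cd79b, Syk docks there and phosphorylates the scaffold Blnk, and Btk and Plcg2 assemble on Blnk to start calcium signalling. Pik3ap1 (BCAP) recruits phosphoinositide 3-kinase, whereas Inpp5d (SHIP1), which removes a phosphate from that kinase's product, and Dok3 restrain the signal. Ikaros is a zinc finger transcription factor of lymphocytes, whose inner fingers contact DNA with the core GGGAA.

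Values are RPKM, reads scaled to transcript length and library size, with 1 transcript row per gene (the row with the highest mean). Because RPKM is per length, levels are set side by side between genes as a description. Such comparisons are approximate, since the settings and annotation behind the values are not known. Differences are fitted values of log2(RPKM + 1) with their standard error (SE) from limma, over 2 libraries per genotype and with day as a further term. A gene was called, and is said to have risen or fallen, at a Benjamini-Hochberg adjusted p below 0.05 over the 11379 genes.

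Between 10401 and 11233 symbols reached 1 RPKM in each library. The 9 B-lineage markers summed to between 3399.3 and 3704.2 RPKM in every library, with none at 0, and Vpreb3 and Igll1 had the largest shares of that sum. Of the 9, Cd24a fell in both mutants, from 208.2 and 178.2 RPKM to 92.3 and 100.6 (ZnF1) and 124.4 and 107.6 (ZnF4), Igll1 rose in the ZnF4 mutant, and no other was called against wild type. Ikzf1, the targeted gene, stood at 89.2 and 78.7 RPKM in wild type, 108 and 91.4 in ZnF1 cultures and 186 and 165.9 in ZnF4 cultures (days 21 and 28). It rose by 0.24 ± 0.07 (adjusted p = 0.0426) and 1.06 ± 0.07 (adjusted p = 0.00129) in limma, but a gene-level value does not show whether a zinc finger is missing. The 21 macrophage and monocyte markers summed to 733 and 487.4 RPKM in wild type, 2785.7 and 2721.4 in ZnF1 cultures and 317.6 and 382 in ZnF4 cultures. Of the 19 tested, 18 rose in the ZnF1 mutant and 10 fell in the ZnF4 mutant, and Lyz1 and Csf3r were listed at 0 in both ZnF4 libraries. Stroma and endothelium markers (15 genes) summed to between 86.9 and 118.3 RPKM in wild type, 416.5 and 462.3 in ZnF1 cultures and 71.1 and 72.7 in ZnF4 cultures, with Lum at 0 in all 6. Fn1 had the largest part, with 238.1 and 197.3 RPKM in ZnF1 cultures, and 12 of the 13 tested rose in the ZnF1 mutant. T cell markers (8 genes) summed to 9.9 and 8.8 RPKM in the ZnF1 mutant against 0.4 to 1.1 RPKM elsewhere. Most of the ZnF1 sum was Cd4 (8.5 and 7.2 RPKM), while Cd3e, Cd3g, Cd8a, Trat1 and Themis were listed at 0 throughout. Natural killer and dendritic markers (8 genes) summed to 7 and 6.7 RPKM in the ZnF1 mutant against 1.2 to 1.9 RPKM elsewhere. Most of the ZnF1 sum was Itgax (5.9 and 6 RPKM), while Ncr1 and Gzma were at 0 throughout. The mast cell, platelet and erythroid markers summed to 74.3 and 83.8 RPKM in the ZnF1 mutant against 15 to 30.8 RPKM elsewhere. Nearly all of this was Pf4, at 70.2 and 79.2 RPKM in the ZnF1 mutant and 13.6 to 30 elsewhere. No other gene of that list exceeded 3.4 RPKM. In such bulk RNA, fewer cells of a type and less RNA per cell cannot be told apart.

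Different members were called in each mutant. Against wild type, Lyn and Pik3ap1 rose and Fyn and Plcg2 fell in the ZnF1 mutant, while Blk, Dok3, Syk, Btk and Inpp5d fell in the ZnF4 mutant. These lists depend on the threshold. Blk also lay below both wild type libraries in the ZnF1 mutant (-1.29, limma adjusted p = 0.0675). Pik3ap1 also lay above both in the ZnF4 mutant (0.60, limma adjusted p = 0.0553). Syk alone had fitted values of opposite sign, 0.19 in the ZnF1 and -0.81 in the ZnF4 mutant. Between the mutants, 7 members differed: Blk, Dok3, Syk, Lyn and Pik3ap1 were lower and Fyn and Plcg2 higher in the ZnF4 mutant. Blnk was called in none of the comparisons.

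**Figure D1:**
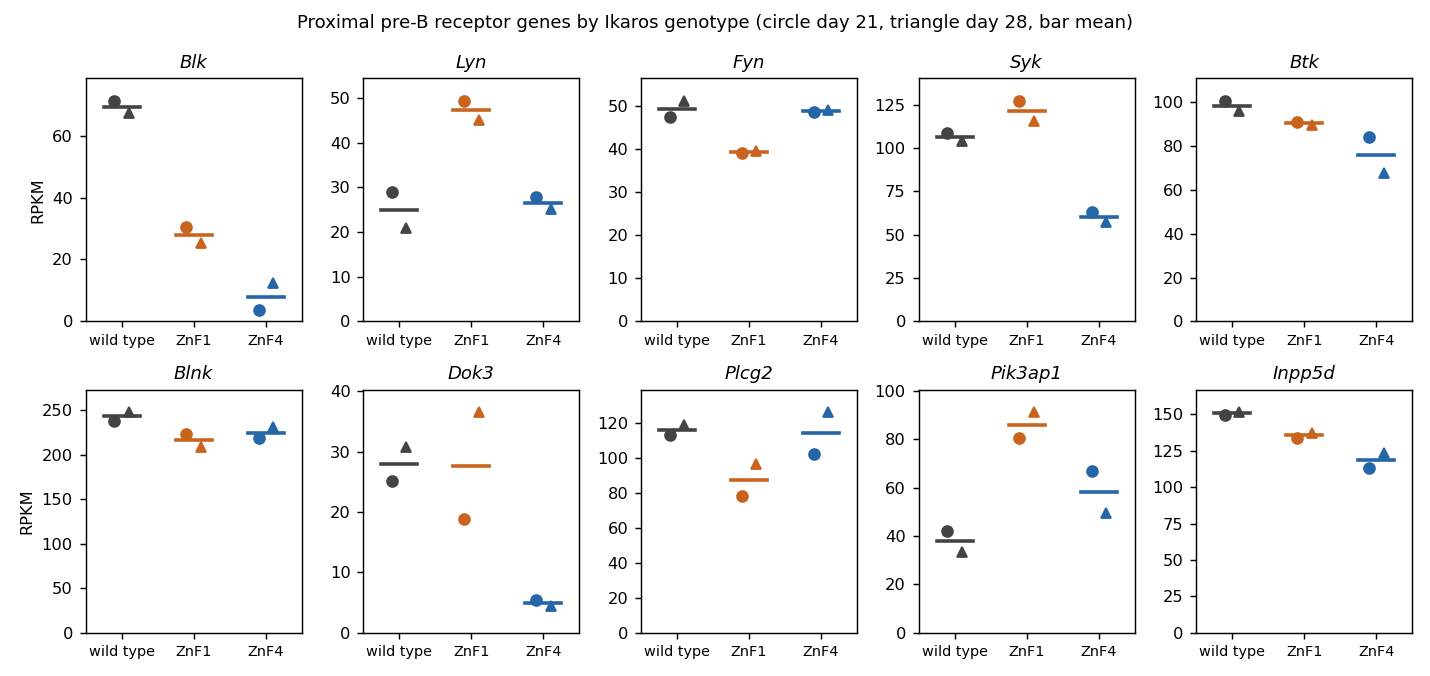
RPKM of the 10 members (vertical axes, each from 0) in wild type, ZnF1 mutant and ZnF4 mutant libraries. A circle is the library of day 21, a triangle that of day 28 and the bar their mean; Blk lies at 3.7 and 12.4 RPKM and Dok3 at 5.5 and 4.5 RPKM in the ZnF4 mutant, below every other library, while Blnk stays between 208.7 and 248.1 RPKM.

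Of the 10 members, 2 rose in the ZnF1 mutant, where 22.9% of all tested genes did, and 2 fell, where 15.2% did. In the ZnF4 mutant 0 members rose against 10.9% of all tested genes, and 5 fell against 7.32%. Between the mutants, 2 members were called higher in ZnF4 cultures (22.3% of tested genes) and 5 lower (23.2%). The median difference of the 10 members from wild type was -0.14 (ZnF1 mutant) and -0.23 (ZnF4 mutant), and -0.41 between the mutants. The same medians over all tested genes were -0.02, 0.02 and 0.03. Since the members were chosen with earlier results of these data known, their counts beside these shares are a description and not a test. Both comparisons with wild type use the same 2 control libraries and are not independent. With all genes kept whatever their level, limma lost the ZnF4 calls against wild type of Blk (adjusted p = 0.0802), Dok3 (0.0632), Btk (0.127) and Inpp5d (0.0564), and the ZnF1 call of Plcg2 (0.0536). Between the mutants it then lost those of Blk (0.0929), Plcg2 (0.0524) and Pik3ap1 (0.111).

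Groups that did not overlap were common over the whole table. In the ZnF1 mutant 3 members lay above both wild type libraries (34.7% of tested genes) and 6 below both (33.4%). In the ZnF4 mutant 1 member lay above (30.9%) and 6 below (24.6%). Between the mutants 2 lay higher (37%) and 7 lower (32.6%) in both ZnF4 libraries.

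**Figure D2:**
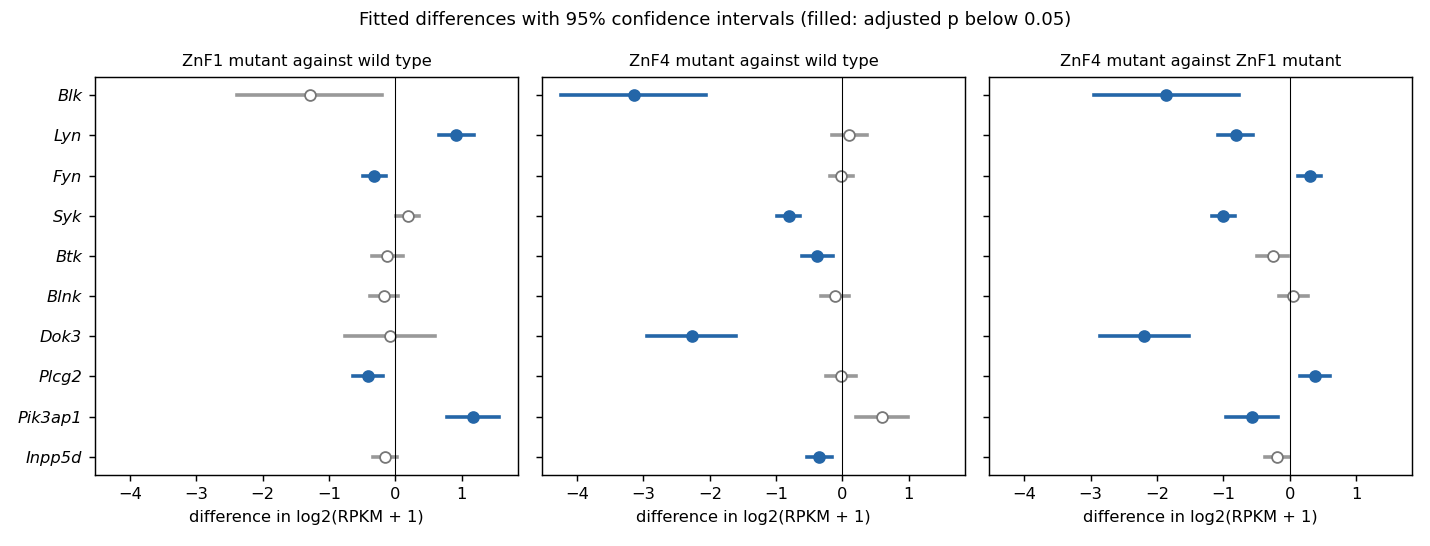
Fitted difference in log2(RPKM + 1) of each member (horizontal axis) for the 3 genotype comparisons, with 95% confidence intervals. Filled points have an adjusted p below 0.05; the points of Blk and Dok3 lie at -3.15 and -2.27 in the middle panel, and those of Lyn and Pik3ap1 at 0.92 and 1.17 in the left one.

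Blk, the Src-family kinase most restricted to the B lineage, had the widest range of the members. Blk stood at 71.3 and 67.4 RPKM in wild type, 30.4 and 25.4 in ZnF1 cultures and 3.7 and 12.4 in ZnF4 cultures. The 3 genotypes did not overlap, with wild type highest and the ZnF4 mutant lowest. Blk fell by 3.15 ± 0.43 in the ZnF4 mutant on the log2 scale (limma, adjusted p = 0.00911), with 19.3-fold lower RPKM at day 21 and 5.44-fold lower at day 28. The ZnF1 mutant value was -1.29 ± 0.43 and was not called (adjusted p = 0.0675, 95% interval -2.38 to -0.20), with RPKM 2.35-fold lower at day 21 and 2.65-fold lower at day 28. Between the mutants Blk was lower in the ZnF4 mutant (-1.86 ± 0.43, adjusted p = 0.02). The ZnF4 call against wild type did not survive the removal of a wild type library (adjusted p up to 0.123). That between the mutants was lost when a wild type library or the day 21 library of ZnF1 cultures was removed (up to 0.119). Without either ZnF4 library, the pair that differed most between days, the ZnF1 difference was called (adjusted p = 0.0113 and 0.0112).

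Lyn is the Src-family kinase that can both start and dampen receptor signalling, and myeloid cells use it too. Lyn stood at 28.9 and 20.8 RPKM in wild type, 49.4 and 45.1 in ZnF1 cultures and 27.8 and 25.2 in ZnF4 cultures. Both ZnF1 libraries were above all others, while the ZnF4 values lay inside the wild type range. Lyn rose in the ZnF1 mutant by 0.92 ± 0.10 (limma, adjusted p = 0.00269) and was lower in the ZnF4 mutant than in the ZnF1 mutant (-0.81 ± 0.10, adjusted p = 0.00284). These 2 calls held in every alternative, with adjusted p up to 0.0296 and 0.0367 when 1 library was left out. The ZnF4 mutant against wild type gave 0.11 ± 0.10 (adjusted p = 0.547, interval -0.16 to 0.37). The macrophage markers, whose sums are given above, were also highest in the 2 ZnF1 libraries, and their part in the Lyn result was not tested.

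Fyn, another Src-family kinase of B and T cells, moved little. Fyn stood at 47.4 and 51.2 RPKM in wild type, 39.1 and 39.6 in ZnF1 cultures and 48.5 and 48.9 in ZnF4 cultures. The ZnF1 libraries were the 2 lowest, and wild type and ZnF4 overlapped. Fyn fell by 0.32 ± 0.07 in the ZnF1 mutant (limma, adjusted p = 0.0187) and was higher in the ZnF4 than in the ZnF1 mutant by 0.30 ± 0.07 (adjusted p = 0.0177). The first call needed all 4 libraries compared (adjusted p up to 0.181 with 1 of them removed), and the second was lost on removing each library except the ZnF4 library of day 28 (up to 0.145).

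The RPKM of 7 Src-family genes (Blk, Lyn, Fyn, Lck, Fgr, Src and Yes1) were summed to set the 3 members among their relatives. Their sum was 185.4 and 187.3 RPKM in wild type, 137.9 and 147.6 in ZnF1 cultures and 97.7 and 103.8 in ZnF4 cultures. The ZnF4 libraries thus held the smallest sum of these 7. Lck stood at 36.3 and 46.7 RPKM in wild type, 11.7 and 30.5 in ZnF1 cultures and 16.9 and 15.8 in ZnF4 cultures. It fell in the ZnF1 mutant (-1.08 ± 0.32, limma adjusted p = 0.0495). In the ZnF4 mutant Lck was next to the threshold and not called (-1.28 ± 0.32, limma adjusted p = 0.0508). Blk made up 37.2% ± 1.75 (SD, n = 2) of the sum in wild type, 19.6% ± 3.42 in ZnF1 cultures and 7.87% ± 5.77 in ZnF4 cultures. Fyn made up 26.5% ± 1.25, 27.6% ± 1.08 and 48.4% ± 1.79 in the same order, so it was the leading transcript of the 7 in the ZnF4 mutant at a level close to that of wild type. Lyn made up 13.3% ± 3.17, 33.2% ± 3.72 and 26.4% ± 2.95.

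The Lyn share was thus higher than wild type in both mutants, though Lyn itself rose only in the ZnF1 mutant. The ratio of Lyn to Blk RPKM was 0.405 and 0.309 in wild type, 1.63 and 1.78 in ZnF1 cultures and 7.51 and 2.03 in ZnF4 cultures. Lyn was below Blk in both wild type libraries and above it in all 4 mutant libraries. Where the transcript rows of a gene were averaged in place of taking the highest, the Blk share was 56.6%, 33.3% and 14.9%, in the same order of genotypes. Blk has 1 row, while Lyn and Fyn each have a second row of at most 0.1 and 0.9 RPKM, so averaging lowers these 2 and not Blk. The lowering of Lyn and Fyn does not by itself give these shares. Averaging thus lowered other genes of the sum too, whose separate rows are not shown here.

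**Figure D3:**
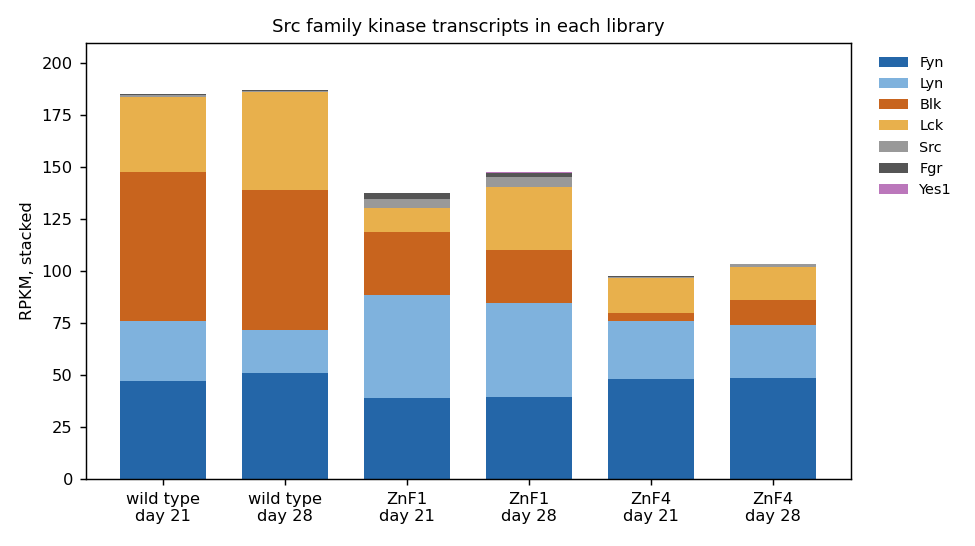
Stacked RPKM of 7 Src-family kinase genes (vertical axis) in each of the 6 libraries, 1 bar a library and no error bars. The Blk band shrinks from 71.3 and 67.4 RPKM in wild type to 3.7 and 12.4 in the ZnF4 mutant, the Lyn band is widest in the ZnF1 mutant (49.4 and 45.1) and the Fyn band ranges from 39.1 to 51.2 RPKM. The Lck band lies at 36.3 and 46.7 RPKM in wild type and at 16.9 and 15.8 in the ZnF4 mutant.

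Syk is the tyrosine kinase that docks on the phosphorylated receptor tails. A RefSeq promoter window of Syk (the 250 bases before an annotated start, assembly GRCm38.p6, chr13:52583187-52583436, plus strand) is shown because the gene fell in the ZnF4 mutant while its window holds no GGGAA. The expression values were made on another build, mm9, so the window was matched by gene name only. In the sequences of Syk, Dok3 and Pik3ap1 capitals mark GGGAA or its reverse complement TTCCC.
Syk: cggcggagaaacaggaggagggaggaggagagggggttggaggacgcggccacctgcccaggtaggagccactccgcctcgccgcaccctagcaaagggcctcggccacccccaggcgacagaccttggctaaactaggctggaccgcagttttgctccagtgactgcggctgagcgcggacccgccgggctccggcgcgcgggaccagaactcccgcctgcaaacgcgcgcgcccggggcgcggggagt
That no match is found says only that these letters are not in the window.

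Syk stood at 108.7 and 104 RPKM in wild type, 127.4 and 115.6 in ZnF1 cultures and 63.4 and 57.2 in ZnF4 cultures. The ZnF4 libraries were the 2 lowest and the ZnF1 libraries the 2 highest. Syk fell by 0.81 ± 0.07 in the ZnF4 mutant against wild type (limma, adjusted p = 0.00233) and was lower than in the ZnF1 mutant (-0.999 ± 0.07, adjusted p = 0.000557). The call between the mutants held with any library left out (adjusted p up to 0.0171), and the call against wild type was lost when the day 28 library of wild type was removed (0.0563). In the ZnF1 mutant the difference was 0.19 ± 0.07 (adjusted p = 0.0804, interval 0.02 to 0.36), and it was called after quantile normalization (0.0188).

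Btk, the Tec-family kinase that activates Plcg2, stood at 100.8 and 96.2 RPKM in wild type, 91.1 and 89.6 in ZnF1 cultures and 84.2 and 67.8 in ZnF4 cultures. The genotypes did not overlap, in the order wild type, ZnF1 and ZnF4, but they lay close together. Btk fell by 0.38 ± 0.09 in the ZnF4 mutant (limma, adjusted p = 0.0491), next to the threshold. That call was lost with any 1 library left out (adjusted p up to 0.327) and under every other alternative except median scaling. The ZnF1 mutant gave -0.12 ± 0.09 (adjusted p = 0.340), which turned to 0.01 after quantile normalization. Between the mutants the value was -0.25 ± 0.09 (adjusted p = 0.0762), called after quantile normalization (0.022) and without the ZnF4 library of day 21 (0.0304).

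Blnk, the scaffold that brings Btk and Plcg2 to Syk, was the most abundant member in each genotype. Blnk stood at 238.4 and 248.1 RPKM in wild type, 223.5 and 208.7 in ZnF1 cultures and 218.9 and 230.9 in ZnF4 cultures. Both mutants lay below both wild type libraries, and the mutants overlapped each other. The differences of -0.17 ± 0.09 (ZnF1 mutant, adjusted p = 0.170) and -0.11 ± 0.09 (ZnF4 mutant, adjusted p = 0.430) were not called in limma, with intervals of -0.39 to 0.05 and -0.33 to 0.10. The ratio of Syk to Blnk RPKM was 0.456 and 0.419 in wild type, 0.570 and 0.554 in ZnF1 cultures and 0.290 and 0.248 in ZnF4 cultures, so the kinase and its scaffold did not keep 1 ratio.

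Plcg2, the phospholipase that makes the calcium-releasing messenger, stood at 113.4 and 118.7 RPKM in wild type, 78.2 and 96.7 in ZnF1 cultures and 102.4 and 126.4 in ZnF4 cultures. The ZnF1 libraries were the 2 lowest, and the ZnF4 pair spanned the wild type pair. Plcg2 fell by 0.41 ± 0.09 in the ZnF1 mutant (limma, adjusted p = 0.0199) and was higher in the ZnF4 than in the ZnF1 mutant by 0.38 ± 0.09 (adjusted p = 0.02). Each call needed all 4 libraries compared, with adjusted p up to 0.183 and 0.156 when 1 of them was removed. Without the day term they had adjusted p of 0.0782 and 0.0822, and the second had 0.0593 after quantile normalization. Plcg2 and Fyn were the 2 members that fell in the ZnF1 mutant alone against wild type, and both differed between the mutants.

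Pik3ap1 (BCAP) is the adaptor that brings phosphoinositide 3-kinase to the receptor complex, and macrophages also express it. Its RefSeq promoter window (GRCm38.p6, chr19:41385103-41385352, minus strand) is shown because Pik3ap1 had the largest called rise of the members. It holds TTCCC at 243 and 112 bases before the start.
Pik3ap1: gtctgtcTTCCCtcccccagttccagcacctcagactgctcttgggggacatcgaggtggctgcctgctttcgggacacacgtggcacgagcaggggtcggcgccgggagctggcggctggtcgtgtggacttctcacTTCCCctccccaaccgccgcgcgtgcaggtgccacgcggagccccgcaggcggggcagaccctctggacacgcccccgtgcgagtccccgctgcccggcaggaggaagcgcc
A match is a description of the letters and not a bound site.

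Pik3ap1 stood at 42.1 and 33.5 RPKM in wild type, 80.4 and 91.3 in ZnF1 cultures and 66.7 and 49.5 in ZnF4 cultures. Both mutants lay above wild type, and the ZnF1 mutant lay above the ZnF4 mutant. Pik3ap1 rose in the ZnF1 mutant by 1.17 ± 0.15 (limma, adjusted p = 0.0044), a mean RPKM of 2.27 times wild type. In the ZnF4 mutant the difference was 0.60 ± 0.15 (adjusted p = 0.0553, interval 0.21 to 0.99). That value was called after quantile normalization (0.0499), median scaling (0.0434) and without either ZnF1 library (0.0165 and 0.0158). The value between the mutants was -0.57 ± 0.15 (adjusted p = 0.033) and was lost without each library except the ZnF1 library of day 21 (up to 0.206). The ZnF1 call was lost when the day 28 library of wild type was removed (0.0716). Macrophage marker sums were highest in the ZnF1 libraries but lower in the ZnF4 mutant than in wild type, where Pik3ap1 lay above wild type. Their part in these values was not tested.

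Dok3, an adaptor that restrains receptor signalling, was the other member with a wide range. The Dok3 window (GRCm38.p6, chr13:55528539-55528788, minus strand) is shown because Dok3 fell in the ZnF4 mutant and overlapped wild type in the ZnF1 mutant. It holds GGGAA at 60 bases before the start.
Dok3: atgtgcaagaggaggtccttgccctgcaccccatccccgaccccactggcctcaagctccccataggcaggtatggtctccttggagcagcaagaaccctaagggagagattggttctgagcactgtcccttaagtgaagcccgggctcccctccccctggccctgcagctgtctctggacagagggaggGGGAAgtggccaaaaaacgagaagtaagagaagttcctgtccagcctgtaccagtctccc
Read on either strand, the same letters stand in the windows of Pik3ap1, which rose in the ZnF1 mutant, and of Dok3, which fell in the ZnF4 mutant.

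Dok3 stood at 25.2 and 30.8 RPKM in wild type, 18.8 and 36.6 in ZnF1 cultures and 5.5 and 4.5 in ZnF4 cultures. The ZnF1 libraries spanned the wild type ones, and both ZnF4 libraries lay far below the rest. Dok3 fell by 2.27 ± 0.26 in the ZnF4 mutant (limma, adjusted p = 0.0058), with RPKM 4.58-fold lower at day 21 and 6.84-fold lower at day 28. It was lower than in the ZnF1 mutant (-2.19 ± 0.26, adjusted p = 0.00241), a call that held in every alternative. The call against wild type was lost when a wild type library or the day 28 library of ZnF4 cultures was removed (up to 0.0902). The ZnF1 value was -0.08 ± 0.26 (adjusted p = 0.826), with an interval from -0.75 to 0.59 that leaves room for a change in either direction.

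Inpp5d (SHIP1), the lipid phosphatase that opposes phosphoinositide 3-kinase, had the second highest mean RPKM in each genotype. Inpp5d stood at 149.8 and 151.7 RPKM in wild type, 134.1 and 137.1 in ZnF1 cultures and 113.5 and 123.4 in ZnF4 cultures. The 3 genotypes did not overlap. Inpp5d fell by 0.35 ± 0.07 in the ZnF4 mutant (limma, adjusted p = 0.031), a call lost with any 1 library left out (up to 0.281). The values of -0.15 ± 0.07 in the ZnF1 mutant (adjusted p = 0.153) and of -0.19 ± 0.07 between the mutants (adjusted p = 0.0785) were not called, though the second was after quantile normalization (0.0178). The ratio of Dok3 to Inpp5d RPKM was 0.168 and 0.203 in wild type and 0.0485 and 0.0365 in the ZnF4 mutant, so the 2 inhibitors that fell did so to unequal degrees. The macrophage marker sums moved in the same direction as Blk, Syk, Dok3, Btk and Inpp5d in the ZnF4 mutant. In the ZnF1 mutant, where the marker sums were highest, Blk, Btk and Inpp5d lay below wild type, Dok3 overlapped it and Syk lay above. The part of the markers in these 5 values was not tested.

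The 8 members found in the RefSeq promoter table had 9 windows, since Syk has 2 starts there. Blk and Lyn had no window and are not part of what follows. GGGAA, read on both strands, was in 5 of the 9 windows (Btk, Dok3, Plcg2, Pik3ap1 and Inpp5d) against 56.2% of the 32851 windows of all genes. The longer TGGGAA, which contains GGGAA, was in 3 of the 9 (Btk, Plcg2 and Inpp5d) against 21.6%. GGAAG, the GGAA core that Ets factors bind with a G after it, was in 5 of the 9 against 64.1%. It overlaps GGGAA where a G follows the GGGAA. Windows with and without GGGAA were found among the members that fell in the ZnF4 mutant and among those that fell in the ZnF1 mutant.

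Within a genotype the order of the members was as follows. In wild type the mean RPKM ran from Blnk (243.3) through Inpp5d (150.8), Plcg2 (116.1), Syk (106.4), Btk (98.5), Blk (69.4), Fyn (49.3), Pik3ap1 (37.8) and Dok3 (28) to Lyn (24.9). Of the neighbours in this order, Dok3 and Lyn alone overlapped over the 2 days. In the ZnF1 mutant Pik3ap1 (85.9) moved up to overlap Plcg2 (87.5), which overlapped Btk (90.4), and Blk (27.9) overlapped Dok3 (27.7) at the low end. In the ZnF4 mutant Blk (8.05) and Dok3 (5) were last and overlapped, Inpp5d overlapped Plcg2, and Syk (60.3) overlapped Pik3ap1 (58.1).

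Day of culture gave 0 called genes of the 11379 in limma, 0% higher and 0% lower, and 0 of the 10 members. At an unadjusted p below 0.05 there were 2 members (20% of the 10) and 1631 genes (14.3%). The member with the largest fitted change from day 21 to day 28 was Blk, at 0.39 ± 0.35 (adjusted p = 0.644). A test of whether genotype differences depend on the day would need more than 1 library for each combination.

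For the 2 members with the widest range, the 3 genes with the most similar pattern over the 6 libraries were taken by Pearson's r of log2(RPKM + 1) with no test. For Blk they were Zfp422 (0.998), Inpp5d (0.988) and Nlrc5 (0.987), and 45 of the other 11378 genes exceeded 0.95. Inpp5d is itself a member, with a range much smaller than that of Blk. For Dok3 they were Endou (0.996), Fundc2 (0.994) and Sema4a (0.993), among 154 genes above 0.95. All genes are compared over the same 6 libraries, which are 3 genotypes on 2 days. Sema4a stood at 40.6 and 43.2 RPKM in wild type, 34.8 and 42.5 in ZnF1 cultures and 19.2 and 18.2 in ZnF4 cultures.

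The rest of the pathway was described by 6 lists of other genes. Among 6 tested Src and Tec family kinases and their relatives, 2 rose and 3 fell in the ZnF1 mutant, with a median of -0.09. In the ZnF4 mutant 0 rose and 0 fell, with the same median of -0.09. Fgr and Src, low in all libraries (at most 2.9 and 4.8 RPKM), rose in the ZnF1 mutant by 1.45 ± 0.15 and 1.49 ± 0.15. Abl1, the cellular tyrosine kinase from which the kinase part of BCR-ABL derives, stood at 61.3 and 60.6 RPKM in wild type, 51.6 and 46.2 in ZnF1 cultures and 67.1 and 72.5 in ZnF4 cultures, and was higher in the ZnF4 than in the ZnF1 mutant by 0.51 ± 0.09 (limma, adjusted p = 0.00724). That call was lost on removing the ZnF1 library of day 28 (0.0696), and reads of the retroviral BCR-ABL could have been counted with Abl1.

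Of 14 receptor chains and co-receptors, 3 rose and 0 fell in the ZnF1 mutant, and 4 rose and 1 fell in the ZnF4 mutant. Cd22, an inhibitory co-receptor that Lyn phosphorylates, was at 5.3 and 2.5 RPKM in wild type, 4 and 2.6 in ZnF1 cultures and 10.1 and 7 in ZnF4 cultures, and was higher in the ZnF4 than in the ZnF1 mutant by 1.15 ± 0.13 (limma, adjusted p = 0.00182). Fcgr2b, the inhibitory Fc receptor that recruits Inpp5d, rose from 19.3 and 27.5 RPKM in wild type to 53.5 and 56.6 in the ZnF1 mutant, by 1.22 ± 0.12. Pirb, an inhibitory receptor of B and myeloid cells that the table lists under an older symbol, rose by 1.90 ± 0.14 in the ZnF1 mutant, from 1.9 and 1.3 to 8.4 and 8.9 RPKM.

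Of 17 phosphatases, ubiquitin ligases and inhibitory adaptors, 5 rose and 3 fell in the ZnF1 mutant and 1 rose and 3 fell in the ZnF4 mutant. Sit1, an inhibitory transmembrane adaptor, fell by 2.12 ± 0.15 in the ZnF1 mutant from 43.2 and 50.2 to 7.6 and 13 RPKM, and stood at 44.5 and 49.7 in the ZnF4 mutant. Ubash3a, a suppressor of antigen receptor signalling, fell in both mutants, from 4.8 and 4 RPKM to 0.8 and 1.2 in the ZnF1 mutant and to 0 and 0.1 in the ZnF4 mutant. Inppl1, the SHIP2 relative of Inpp5d, rose in the ZnF1 mutant by 0.38 ± 0.07 (limma, adjusted p = 0.00952).

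Of 20 adaptors and exchange factors, 7 rose and 2 fell in the ZnF1 mutant and 3 rose and 2 fell in the ZnF4 mutant. Lat2, a transmembrane adaptor of B and myeloid cells, rose in the ZnF1 mutant from 3.8 and 4.4 to 13.6 and 17.5 RPKM (1.69 ± 0.09) and fell in the ZnF4 mutant to 2.3 and 2.8 (-0.52 ± 0.09), the pattern of the macrophage marker sums. Sh3bp2, an adaptor that Syk phosphorylates, rose in the ZnF1 mutant by 1.18 ± 0.07. Shb, an SH2 adaptor, fell by 0.87 ± 0.08 in the same mutant.

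Of 13 genes of phosphoinositide 3-kinase and lipid signalling, 3 rose and 0 fell in the ZnF1 mutant and 0 rose and 2 fell in the ZnF4 mutant. Inpp4b, a lipid phosphatase downstream of Inpp5d, was at 2.4 and 2.4 RPKM in wild type, 5.4 and 4.8 in ZnF1 cultures and 0.2 and 0.2 in ZnF4 cultures, and fell by 1.50 ± 0.10 in the last of these (limma, adjusted p = 0.00131). The kinase subunits Pik3r5 and Pik3cb rose in the ZnF1 mutant by 0.92 ± 0.13 and 1.34 ± 0.18, the second from at most 0.5 RPKM.

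Of 18 genes of the protein kinase C, calcium, Ras and NF-kB arms, 5 rose and 0 fell in the ZnF1 mutant and 5 rose and 2 fell in the ZnF4 mutant. Rasgrp1, a Ras activator downstream of Plcg2, fell by 1.75 ± 0.23 in the ZnF4 mutant from 10.3 and 11.7 to 2 and 3.2 RPKM (limma, adjusted p = 0.00813). Its relative Rasgrp3 rose in the ZnF1 mutant by 1.01 ± 0.11, from 1.2 and 0.6 to 3.1 and 2.5 RPKM. Malt1, a protease of the NF-kB arm, rose in both mutants, by 0.42 ± 0.07 in the ZnF1 mutant and by 0.73 ± 0.07 in the ZnF4 mutant. The ZnF4 call was lost on removing either wild type library.

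Between the mutants, the numbers of genes called higher and lower in the ZnF4 mutant were 2 and 2 of the 6 kinases, 3 and 4 of the 14 chains and co-receptors, and 2 and 5 of the 17 phosphatases, ligases and inhibitory adaptors. They were 1 and 7 of the 20 adaptors, 0 and 6 of the 13 lipid signalling genes, and 2 and 6 of the 18 genes of the last list. The shares of all tested genes given for the members (for ZnF1 22.9% and 15.2%, for ZnF4 10.9% and 7.32%, between them 22.3% and 23.2%) are the background of these counts too. The medians of the 6 lists lay between -0.09 and 0.20 in the ZnF1 mutant and between -0.10 and 0.01 in the ZnF4 mutant. More genes rose than fell in the ZnF1 mutant in each list but the kinases, of which 2 rose and 3 fell. The macrophage marker sums were highest in the same libraries, and their part in these counts was not tested.

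**Figure D4:**
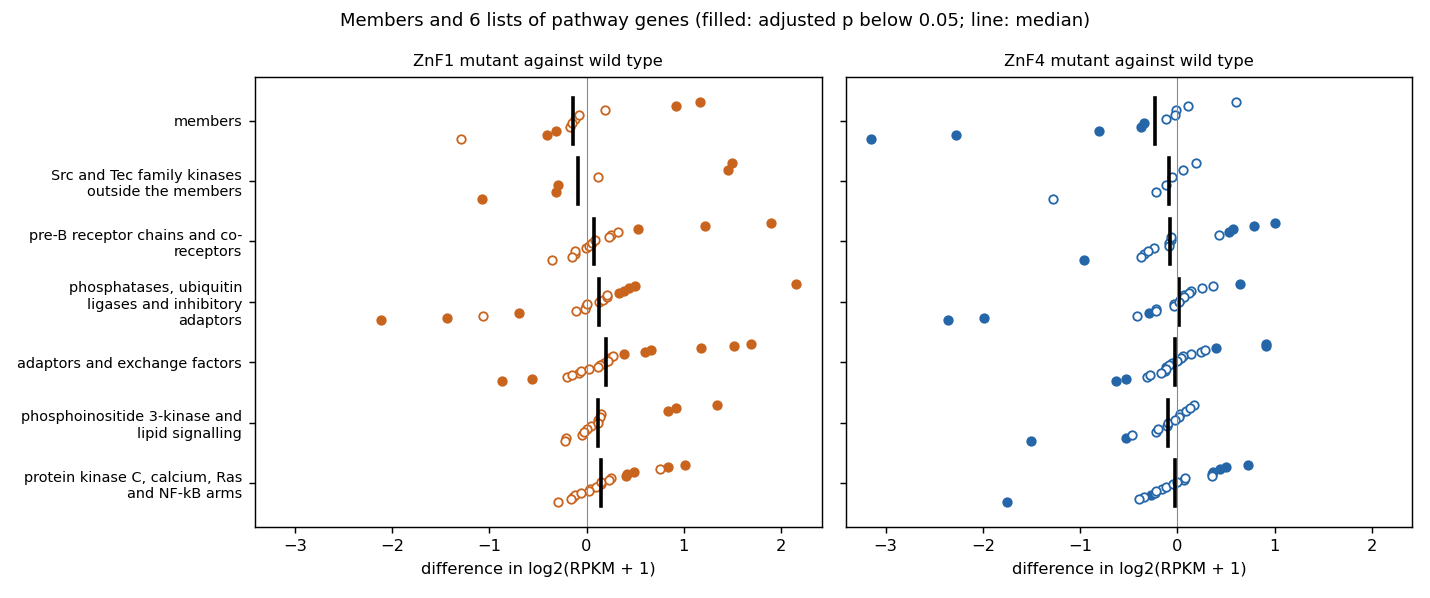
Difference in log2(RPKM + 1) of each tested gene (horizontal axis) for the members and the 6 lists, in the ZnF1 mutant (left) and the ZnF4 mutant (right) against wild type. Filled points have an adjusted p below 0.05 and the vertical line is the list's median; the medians of the 6 lists lie between -0.09 and 0.20 on the left and between -0.10 and 0.01 on the right.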

How the data were processed

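Poly(A) RNA of 6 libraries was measured, 1 for each of 3 genotypes at each of 2 days. The reads were processed with TopHat and bedtools on build mm9, per the submitters' processing notes; their versions, settings and annotation are not given in the sources used here. RPKM values were deposited by the authors, rounded to 1 decimal, for 26531 transcript rows, and with them the gene length, an unscaled column of other kind that was not used as a measurement. No strand-marking step is named in the labels' protocols, so reads of overlapping antisense genes cannot be told apart. An entry with no gene name (1 row) was dropped. Library depth is unknown: of low values of rows under 160 bases, 50% to 57.5% fell on the steps of single reads, against 42.3% to 45% by chance, so no reads were recovered and no counting interval is given.

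For each of the 22098 symbols the row with the highest mean stood, which matters for 3305 symbols with several rows. log2(RPKM + 1) was fitted with limma 3.58.1 (R 4.3.3) to all 6 libraries with genotype and day as terms and a mean-variance trend, with 2 residual degrees of freedom and a prior of 3.22. A pseudocount of 1 makes fold changes of low genes too small. Genes at 1 RPKM or more in 2 or more libraries were tested (11379), and p-values were adjusted by Benjamini-Hochberg over them with a threshold of 0.05. The steps were tested on simulated data. Tables were joined with Python 3.11.15 and pandas 2.3.3.

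The sample titles give a genotype and a day, and the day served as the replicate and was kept as a block. Day changes correlated across genes between genotypes, with r of 0.433, 0.249 and 0.226. No pair of libraries shared more than 5.61% of values. The members and gene lists were chosen with earlier results of these data known. All 10 members are named, the 3 genes with the smallest p of each pathway list, and the 3 genes most correlated with each of the 2 members of widest range. A gene of the pathway lists is not reported here and was left out of the lists and sums. Of 167 list entries all matched, 4 of them (Syk, Pirb, Themis2 and Adgre1) through their RefSeq accession. Promoter windows are RefSeq sequences of GRCm38.p6, 250 bases before the start, matched by symbol for 8 of the 10 members. Alternatives were a pseudocount of 0.1, no filter, a mean RPKM of at least 4, quantile normalization, median scaling, the mean over transcript rows, no trend, no block and leaving out each library. The sum over transcript rows was added after seeing the data.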

Additional observations from a re-analysis of the deposited data

Results flagged for a closer look

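Members whose change had opposite signs in 2 genotypes or on the 2 days, by at least 0.1 in log2(RPKM + 1) each, were listed. None of these differences was tested, because there was 1 library per genotype and day. From day 21 to day 28 Blk went from 3.7 to 12.4 RPKM in the ZnF4 mutant, a change of 1.51, and changed by -0.25 in the ZnF1 mutant.

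Dok3 changed by 0.279 in wild type, 0.925 in ZnF1 cultures and -0.241 in ZnF4 cultures over the same days. Its difference between the ZnF1 mutant and wild type was -0.404 at day 21 and 0.242 at day 28. The value of -0.08 given for Dok3 in the ZnF1 mutant is thus the mean of opposite values.

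Pik3ap1 changed by -0.321 in wild type, 0.181 in ZnF1 cultures and -0.423 in ZnF4 cultures. The ZnF1 mutant was above wild type on both days.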

How the results depend on the processing

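Of the 4 members called in the ZnF1 mutant, the 5 in the ZnF4 mutant and the 7 between the mutants, leaving out 1 library left 1 to 5, 0 to 4 and 4 to 5. The count of 0 came without the wild type library of day 28. Without the filter 1 member was called in the ZnF4 mutant (Syk) and 4 between the mutants; more genes are then adjusted for. With no replicate block the counts were 3, 4 and 6, the calls of Plcg2 and Btk being lost. Day gave 0 under every setting.

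Signs turned only for values that were not called, and the cause was not tested. With 1 library left out, the ranges were -0.53 to 0.37 for Dok3 in the ZnF1 mutant and, for ZnF4 against wild type, -0.056 to 0.267 for Lyn, -0.063 to 0.031 for Fyn and -0.146 to 0.090 for Plcg2. Blnk between the mutants ranged from -0.025 to 0.140, and the day values from -0.17 to 0.72 for Blk and from -0.021 to 0.067 for Blnk. Quantile normalization gave 0.011 for Btk in the ZnF1 mutant, -0.052 for Blnk between the mutants, and day values of -0.019 (Fyn), -0.045 (Blnk) and -0.0051 (Inpp5d). Median scaling gave day values of -0.0033 for Fyn and -0.038 for Blnk. Quantile normalization also moved the median of all genes to -0.12 in the ZnF1 mutant and 0.12 between the mutants. The sum over transcript rows gave Blk shares of 36.5%, 19.3% and 7.75%. Among the values of single genes and the Blk shares, 700 stayed on their side of the threshold or within their spread, 64 lost the call, 10 gained it and 3, the Blk shares averaged over transcript rows, moved. The depth is unknown. The standard errors of the members ran from 0.07 to 0.43 on the log2 scale, so a value of 0.30 was called for Fyn and one of -1.29 was not for Blk.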
